A study of Homo sapiens with 12 samples.

Results

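The effect of 2 drugs given together on the transcriptome of HL-60 cells was described from 6 of the 12 libraries of the series, the 3 of cells treated with ML-792 and daunorubicin (DNR) against the 3 of cells treated with the vehicle, dimethyl sulfoxide (DMSO). The members were taken by treatment label, with earlier results of these data known. HL-60 is an established human line of acute myeloid leukemia (AML), and every group is this 1 line. The ML-792+DNR cells received 0.5 µM ML-792 and 1 µM DNR and were collected at 3 h, as were the DMSO cells. The other 6 libraries, 3 with 1 µM DNR and 3 with 0.5 µM ML-792 for 3 h, served for direct tests of the combination against each drug alone. Per the study's methods the 3 replicates of a group were independent experiments, and replicates with the same number were treated as a block.

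DNR belongs to the anthracyclines, which slip between DNA bases and hold topoisomerase II on the strand it has cut. ML-792 blocks SUMO activation, the first step by which the small protein SUMO is attached to many transcription factors and chromatin regulators. DNA breaks and stress kinases are known to activate NF-kB, a family of dimeric transcription factors held in the cytoplasm by inhibitory IkB proteins, and AP-1, the dimers of the FOS, JUN and ATF families. Both families act quickly on genes many of which encode inhibitors of the pathway that switched them on. The comparison asks which genes were higher or lower when HL-60 cells met the DNA-damaging drug while SUMO attachment was blocked.

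The reads counted in genes came to 46.5, 31.5 and 38.03 M (mega) in replicates 1, 2 and 3 of DMSO and to 32.1, 42.02 and 28.6 M in ML-792+DNR. Mitochondrially encoded transcripts took 4.01%, 2.55% and 3.48% of them in DMSO and 6.37%, 2.49% and 3.48% in ML-792+DNR, so that replicate 1 was the highest of its group in both. Levels are given as CPM, counts per M reads of a TMM-scaled library size. They depend on transcript length and are compared between groups, not between genes. The myeloid identity of the line was checked first: MPO, the peroxidase of primary granules, lay between 10086 and 12198 CPM in all 12 libraries, and CD33 between 58.3 and 94.6 CPM, while the granule protease gene ELANE was nearly absent at 0.324 to 4.03 CPM. Of 15 lymphocyte markers, CD3E, TRAC and MS4A1 were among those that had no read in the 6 libraries, and the list summed to 7.79 to 13.2 CPM in DMSO and 9.87 to 14.0 CPM in ML-792+DNR. The 13 erythroid and megakaryocyte markers summed to 3.73 to 4.66 CPM and 4.39 to 6.99 CPM, with 7 of them, the 5 globin genes listed among them, at 0. The 14 stromal and epithelial markers summed to 4.94 to 6.52 CPM and 5.43 to 7.16 CPM, with 6 at 0. No member of these 3 lists was called, with 2, 2 and 3 members tested. KLF1, an erythroid factor and 1 of the 2 tested erythroid and megakaryocyte markers (list median 0.71), was higher with an adjusted p of 0.0193 but by less than 2-fold (0.98), and it passed 2-fold without DMSO replicate 3 (1.23) or ML-792+DNR replicate 2 (1.09).

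Of 13696 genes tested, 616 (4.50%) rose and 384 (2.80%) fell with both drugs against DMSO, where a call needed both an adjusted p (Benjamini-Hochberg) under 0.05 in edgeR's quasi-likelihood test and a change of 2-fold or more. The median gene moved by 0.01 on the log2 scale. Large changes were mostly rises: 159 genes rose and 42 fell at least 4-fold, 51 rose and 6 fell at least 8-fold, and 21 rose and 0 fell at least 16-fold. Without the fold minimum, 3361 genes were higher and 3347 lower. Among genes with a mean of at least 1 CPM the counts were 329 and 250, and with replicates 2 and 3 only they were 406 and 298. All fold changes below are log2 values with their standard error (SE) from this fit, and n is 3 libraries per group throughout.

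**Figure D1:**
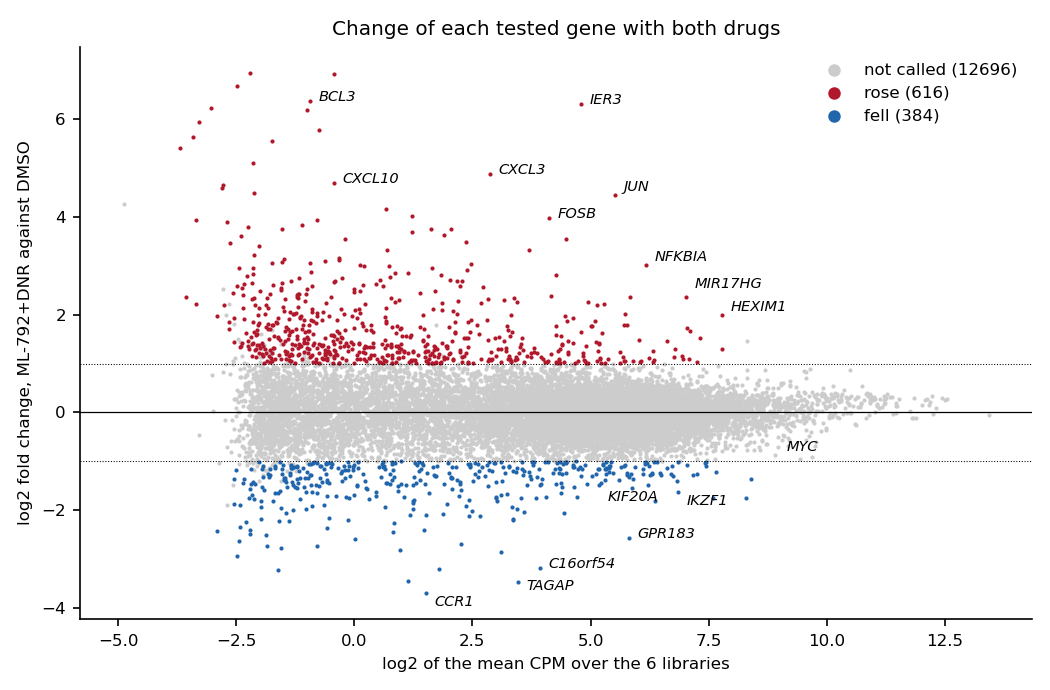
Each point is 1 of 13696 tested genes, with the log2 of its mean CPM over the 6 libraries on the x axis and its log2 fold change, ML-792+DNR against DMSO, on the y axis. The 616 genes that rose reach above 6 on the y axis, while the 384 that fell stay above -4, and dotted lines mark a 2-fold change.

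The strongest rise among well-expressed genes was that of IER3, an immediate early gene that restrains apoptosis and is a target of NF-kB (chr6:30710976-30712325, minus strand, GRCh37). IER3 stood at 0.497, 1.24 and 0.433 CPM in DMSO replicates 1, 2 and 3 and at 53.1, 51.5 and 60.6 CPM in ML-792+DNR. Every treated library was far above every vehicle library, and the gene was 79.8-fold higher (6.32 ± 0.27, adjusted p = 1.01e-07). Of the 8 genes that the study singled out, IER3, NFKB2, ICAM1, CXCL10, FOSB and EGR1 rose, and CTCF and MYC were not called. The study picked genes in part on these libraries and in part on other measurements of DNR-treated HL-60 cells, so the count is not independent evidence of a direction. MYC stood at 519.8, 725 and 584 CPM in DMSO and 251, 584 and 344 CPM in ML-792+DNR, so the groups overlapped, and its difference stayed under 2-fold (-0.70 ± 0.12, adjusted p = 6.61e-04). CTCF, the insulator protein that shapes chromatin loops, went from 154, 129 and 129.6 CPM to 77.6, 91.3 and 73.8 CPM, lower in every treated library but also under 2-fold (-0.77 ± 0.09, adjusted p = 6.30e-05).

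**Figure D2:**
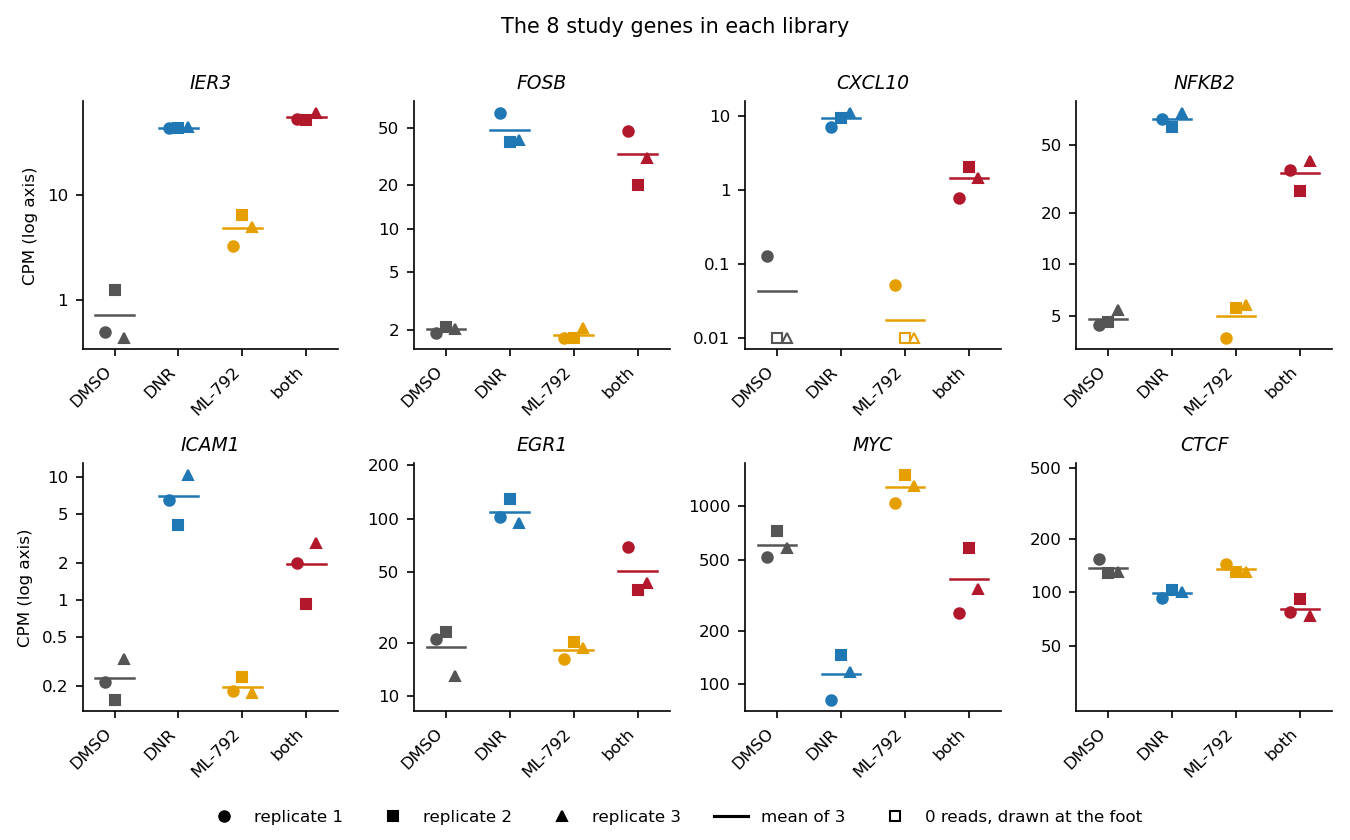
CPM on a log axis of the 8 study genes in each of the 12 libraries, by treatment group, with symbols for replicate number and a line at the mean of 3. IER3, FOSB, CXCL10, NFKB2, ICAM1 and EGR1 lie higher in all 3 libraries with both drugs than in any DMSO library, MYC overlaps, and open symbols at the foot of the CXCL10 panel stand for 0 reads.

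Of 11 NF-kB subunits and IkB proteins tested, 6 rose, 0 fell and 5 were not called, where 4.50% of all genes rose and 2.80% fell. Their median log2 fold change was 1.14 against 0.01 over all genes. NFKB2, which encodes the p100 precursor of the p52 subunit (chr10:104153867-104162281, plus strand), stood at 4.404, 4.58 and 5.43 CPM in DMSO and 35.4, 26.7 and 39.98 CPM in ML-792+DNR. Its lowest treated library was above its highest vehicle library by a wide margin (2.82 ± 0.14, adjusted p = 3.70e-07). RELB, the usual partner of p52, went from 3.04, 4.36 and 4.64 CPM to 16.8, 12.7 and 18.4 CPM (2.00 ± 0.15, adjusted p = 3.35e-06). NFKBIA, which encodes IkB alpha, the inhibitor that NF-kB itself induces, went from 16.1, 14.1 and 17.1 CPM to 107, 146 and 135 CPM (3.02 ± 0.14, adjusted p = 2.20e-07). Both genes were higher in every treated library. BCL3, an IkB-like nuclear cofactor, had 1 read in the 3 DMSO libraries together and 102 in the 3 treated ones, a ratio of 119 with a 95% counting interval from 20.8 to 4732.

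Among targets and feedback regulators of NF-kB, 13 of 24 tested members rose and 0 fell, beside 4.50% and 2.80% of all genes, with a median of 1.15. The median depended on the filter. At a mean of 1 CPM or more 11 of 22 rose with a median of 0.82, and without a count filter 13 of 26 with 0.81. The leading members by change were IER3, PTX3, TNFAIP3 and ICAM1. TNFAIP3 encodes A20, a ubiquitin-editing enzyme that shuts the pathway off (chr6:138188351-138204451, plus strand), and it stood at 3.78, 2.69 and 3.95 CPM in DMSO and 31.1, 42.2 and 50.9 CPM in ML-792+DNR. That was a rise of 11.6-fold (3.54 ± 0.15, adjusted p = 1.01e-07). ICAM1, an adhesion receptor for leukocyte integrins, stayed low in absolute terms, at 0.216, 0.155 and 0.331 CPM in DMSO and 1.99, 0.935 and 2.93 CPM with both drugs, but no treated library came near a vehicle library (3.02 ± 0.28, adjusted p = 1.26e-05). PTX3, a secreted pattern recognition protein, was at 0.108, 0.0309 and 0.05098 CPM and 0.752, 1.15 and 1.38 CPM (3.93 ± 0.40, adjusted p = 2.49e-05). BIRC3, an inhibitor of apoptosis of the cIAP family, rose from 1.597, 1.64 and 2.06 CPM to 4.74, 8.103 and 8.95 CPM (2.01 ± 0.17, adjusted p = 8.03e-06).

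Because NF-kB acts through a short DNA element, the 250 bases before the start of the canonical transcript (GENCODE, GRCh37) are shown for NFKBIA, TNFAIP3 and NFKB2 and for the chemokine genes CXCL10 and CXCL3, described next, with every match to the kB motif in capitals. The motif is named by its common degenerate form of 10 bases, was searched on both strands, and overlapping matches were kept. It occurred in this window in 16.9% of the coding genes that rose, in 12.2% of those that fell and in 11.8% of all coding genes tested, so a match is common and is a description of the window only.
NFKBIA: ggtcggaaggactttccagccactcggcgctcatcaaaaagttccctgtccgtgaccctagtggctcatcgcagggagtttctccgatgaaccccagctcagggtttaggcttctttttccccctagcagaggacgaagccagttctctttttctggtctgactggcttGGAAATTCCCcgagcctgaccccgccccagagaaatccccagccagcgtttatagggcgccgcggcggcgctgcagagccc
TNFAIP3: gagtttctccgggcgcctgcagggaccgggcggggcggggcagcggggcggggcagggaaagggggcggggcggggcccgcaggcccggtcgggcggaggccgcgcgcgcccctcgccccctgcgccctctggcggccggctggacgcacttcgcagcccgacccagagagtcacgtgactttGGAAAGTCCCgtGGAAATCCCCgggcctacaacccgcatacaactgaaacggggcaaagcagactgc
NFKB2: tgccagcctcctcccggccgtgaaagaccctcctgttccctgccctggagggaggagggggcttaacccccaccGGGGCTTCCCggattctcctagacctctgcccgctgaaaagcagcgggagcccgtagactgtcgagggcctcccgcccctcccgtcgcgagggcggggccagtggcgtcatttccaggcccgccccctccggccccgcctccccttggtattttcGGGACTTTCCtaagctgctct
CXCL10: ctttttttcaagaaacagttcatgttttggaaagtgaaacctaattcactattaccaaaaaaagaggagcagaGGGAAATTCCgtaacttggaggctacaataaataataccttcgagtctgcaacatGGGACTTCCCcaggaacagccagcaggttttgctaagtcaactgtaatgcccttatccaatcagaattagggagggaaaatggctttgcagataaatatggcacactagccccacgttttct
CXCL3: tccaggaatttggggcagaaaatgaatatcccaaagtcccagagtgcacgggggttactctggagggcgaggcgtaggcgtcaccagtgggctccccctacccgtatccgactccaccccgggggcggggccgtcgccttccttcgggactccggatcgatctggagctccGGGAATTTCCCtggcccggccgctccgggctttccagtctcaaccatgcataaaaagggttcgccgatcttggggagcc
TNFAIP3, NFKB2 and CXCL10 each held 2 separate matches, NFKBIA held 1, and the pair in CXCL3 overlapped and shows as 1 run. The canonical transcripts of NFKB2 and TNFAIP3 start inside the gene spans given above, so their windows overlap those spans. The windows lie at chr14:35873956-35874205 for NFKBIA, chr6:138188146-138188395 for TNFAIP3, chr10:104155212-104155461 for NFKB2, chr4:76944651-76944900 for CXCL10 and chr4:74904407-74904656 for CXCL3. No exact match to the form used, GGGRNNYYCC, was in the same window of IER3, BCL3 or ICAM1, 3 genes that also rose. Sites that differ from this form were not searched.

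Cytokine and chemokine genes moved in both directions. Of 40 listed, 24 were tested, and 11 rose and 4 fell, beside 4.50% and 2.80% of all genes, with a median of 0.62. The count filter took in the drug groups, so genes near 0 in DMSO, such as CCL4, entered through treated libraries and could only rise. The count of rises and the median therefore depend on the filter. With the 2 groups fitted alone 7 of 19 rose and 4 fell, and at a mean of 1 CPM or more 6 of 14 rose and 4 fell. The neutrophil chemokine CXCL3 stood at 0.432, 0.588 and 0.433 CPM in DMSO and 16.1, 10.02 and 16.4 CPM in ML-792+DNR, 29.3-fold higher (4.87 ± 0.19, adjusted p = 8.20e-08). CXCL10, a chemokine for activated T cells and a classical interferon response gene, was at 0.1295, 0 and 0 CPM in DMSO and 0.785, 2.06 and 1.48 CPM with both drugs (4.70 ± 0.64, adjusted p = 1.56e-04). With so few reads in the vehicle libraries, the size of the CXCL10 rise is imprecise, whereas its treated libraries were all higher. CXCL8, which encodes interleukin 8, was expressed already in DMSO, at 13.9, 12.8 and 9.48 CPM, and stood at 35.4, 72.9 and 67.5 CPM with both drugs (2.20 ± 0.22, adjusted p = 2.25e-05). CCL4, a chemokine for monocytes, had 0 reads in DMSO and 15 in ML-792+DNR, at least 5.82-fold higher if the DMSO group is set at the 3 counts that a count of 0 allows and the 15 reads are taken as they stand, or 4.17-fold at the lower limit of the 95% counting interval. TNFSF9, the ligand of the costimulatory receptor 4-1BB, rose from 0.4102, 0.433 and 0.459 CPM to 4.35, 1.798 and 3.48 CPM (2.86 ± 0.37, adjusted p = 1.10e-04). In the other direction, IL16, a chemoattractant cytokine of CD4-bearing cells, fell from 16.9, 16.7 and 16.9 CPM to 2.52, 5.298 and 3.51 CPM (-2.19 ± 0.19, adjusted p = 7.86e-06), and TNFSF10, which encodes the death ligand TRAIL, fell from 9.02, 7.67 and 8.21 CPM to 2.35, 3.72 and 3.31 CPM (-1.41 ± 0.18, adjusted p = 1.06e-04).

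Of 30 AP-1 and other immediate early transcription factors tested, 12 rose and 1 fell, beside 4.50% and 2.80% of all genes, with a median of 0.34. JUN, a core subunit of AP-1 (chr1:59242517-59249720, minus strand), stood at 3.69, 5.76 and 2.73 CPM in DMSO and 65.2, 103 and 95.98 CPM in ML-792+DNR, 21.8-fold higher (4.45 ± 0.17, adjusted p = 8.20e-08). FOSB, its FOS-family partner, was at 1.92, 2.104 and 2.04 CPM and 47.7, 19.97 and 30.8 CPM (3.98 ± 0.22, adjusted p = 8.11e-07). The vehicle libraries of FOSB agreed closely, whereas replicate 2 was the lowest and replicate 1 the highest of the treated ones. ATF3, a stress-induced AP-1 member, went from 2.27, 2.14 and 2.55 CPM to 31.7, 15.7 and 23.9 CPM (3.33 ± 0.18, adjusted p = 5.61e-07), again with replicate 2 the lowest treated library. EGR3 went from 0.302, 0.248 and 0.255 CPM to 4.87, 4.08 and 4.202 CPM (4.01 ± 0.21, adjusted p = 5.41e-07). EGR1, the founding member of that zinc finger family, was already present in DMSO at 20.9, 23.1 and 13.1 CPM and reached 69.1, 39.6 and 43.6 CPM, a smaller rise (1.43 ± 0.21, adjusted p = 2.20e-04). The 250 bases before the canonical EGR1 start, at chr5:137800918-137801167, held 2 matches to the CArG motif, the element of serum response factor, in capitals below, and this motif was in the window of 1.82% of coding genes that rose and 1.00% of all tested.
EGR1: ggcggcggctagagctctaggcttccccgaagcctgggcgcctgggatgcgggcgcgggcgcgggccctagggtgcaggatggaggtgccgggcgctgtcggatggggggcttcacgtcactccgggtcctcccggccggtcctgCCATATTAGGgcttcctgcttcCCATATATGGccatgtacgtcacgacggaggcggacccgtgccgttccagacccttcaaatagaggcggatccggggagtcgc
No exact CArG match was in the window of FOSB, and no exact AP-1 match (TGANTCA) in that of JUN, and variant sites were not searched.

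Genes that encode brakes on signalling moved in both directions. Among 21 MAP kinase phosphatases, Sprouty proteins and mRNA decay factors tested, 7 rose, 2 fell and 12 were not called (4.50% and 2.80% of all genes rose and fell), with a median of 0.62. DUSP1, a phosphatase of p38 and JNK, was at 0.108, 0.124 and 0.102 CPM in DMSO and 0.687, 0.791 and 0.861 CPM in ML-792+DNR (2.75 ± 0.33, adjusted p = 6.54e-05). ZC3H12A, the ribonuclease Regnase-1 that degrades cytokine mRNAs, went from 9.22, 11.1 and 10.3 CPM to 32.96, 37.7 and 47.5 CPM (1.94 ± 0.09, adjusted p = 2.60e-07). SPRY4, an inhibitor of receptor tyrosine kinase signalling, went from 0.324, 0.557 and 0.663 CPM to 1.31, 2.397 and 1.58 CPM (1.76 ± 0.23, adjusted p = 1.26e-04). CISH, which restrains JAK-STAT signalling, fell from 5.31, 6.13 and 6.35 CPM to 1.21, 3.93 and 2.24 CPM (-1.33 ± 0.31, adjusted p = 0.00474). Outside the lists, the largest well-expressed rises were SLC6A8, RND1, SGK1 and SNAI1. SLC6A8 imports creatine, and its log2 fold change was 3.75. RND1, a small GTPase without hydrolysis activity, rose by 3.74, SGK1, a kinase induced by serum and glucocorticoids, by 3.63, and SNAI1, a zinc finger repressor, by 3.04 on the log2 scale.

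Of 30 tested genes listed as p53 targets 5 rose, 0 fell and 25 were not called, with a median of 0.25. Over all genes 4.50% rose and 2.80% fell. The 5 were BTG2, PLK2, CDKN1A, PMAIP1 and FAS, and the activity of p53 was not measured. BTG2, an antiproliferative gene induced by stress signals, stood at 0.583, 1.02 and 0.969 CPM in DMSO and 8.601, 8.68 and 11.2 CPM in ML-792+DNR (3.49 ± 0.19, adjusted p = 5.69e-07). PLK2, a polo-like kinase, went from 1.08, 1.702 and 1.17 CPM to 10.3, 6.42 and 8.51 CPM (2.68 ± 0.22, adjusted p = 5.56e-06). CDKN1A, which encodes the cyclin-dependent kinase inhibitor p21, was near the limit of detection at 0.0864, 0.155 and 0.05098 CPM and 0.556, 0.3596 and 0.241 CPM, and its call (1.99 ± 0.48, adjusted p = 0.00519) was lost with replicates 2 and 3 only (adjusted p = 0.0670). Of 26 pro-apoptotic genes 2 rose and 1 fell, close to the 4.50% and 2.80% of all genes. PMAIP1, which encodes the BH3-only protein NOXA, rose with little spread from 65.2, 64.2 and 62.9 CPM to 168, 158 and 145 CPM (1.29 ± 0.06, adjusted p = 1.01e-07), and the death receptor gene FAS rose from 4.14, 4.73 and 4.36 CPM to 9.75, 9.73 and 11.8 CPM (1.24 ± 0.12, adjusted p = 1.68e-05). Of 16 anti-apoptotic genes 4 rose and 0 fell, IER3, TNFAIP3, BAG3 and BIRC3, while the list's median was -0.02. IER3, TNFAIP3 and BIRC3 are also NF-kB targets, and BAG3 is a heat shock gene.

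Of 29 heat shock genes 6 rose and 0 fell, where 4.50% of all genes rose and 2.80% fell, with a median of 0.21. HSPA1B, an inducible HSP70, was at 12.8, 13.8 and 13.9 CPM in DMSO and 42.4, 31.2 and 34.8 CPM with both drugs (1.42 ± 0.17, adjusted p = 8.27e-05), although its counts are uncertain because HSPA1A is a near-identical copy. DNAJB4, an HSP40 cochaperone, went from 11.4, 10.6 and 12.8 CPM to 37.8, 24.5 and 29.3 CPM (1.38 ± 0.11, adjusted p = 4.64e-06), and HSPA6 from 0.151, 0.371 and 0.102 CPM to 1.44, 1.08 and 1.27 CPM (2.66 ± 0.35, adjusted p = 1.31e-04). Of 31 genes of the integrated stress and unfolded protein responses 3 rose and 1 fell, beside 4.50% and 2.80% of all genes, and 5 rose without DMSO replicate 2. PPP1R15A, the phosphatase subunit GADD34 that reverses eIF2 alpha phosphorylation, rose from 10.4, 8.85 and 9.28 CPM to 33.2, 20.1 and 33.6 CPM (1.58 ± 0.12, adjusted p = 4.20e-06), and DDIT4, an inhibitor of mTORC1, fell from 60.6, 51.6 and 62.5 CPM to 25.02, 20.9 and 29.7 CPM (-1.22 ± 0.08, adjusted p = 1.67e-06). Of 21 NRF2 targets 1 rose, near the 4.50% of all genes, and this was SQSTM1, the autophagy receptor p62 (1.48 ± 0.11, adjusted p = 2.66e-06). Of 37 interferon-stimulated genes 5 rose and 1 fell, beside 4.50% and 2.80% of all genes, with a median of 0.00, and with replicates 2 and 3 only 3 rose. IFIH1, the RNA sensor MDA5, rose from 11.6, 11.5 and 11.7 CPM to 30.6, 30.4 and 30.8 CPM (1.40 ± 0.08, adjusted p = 6.68e-07), and IRF7, with more spread, from 1.14, 1.39 and 0.994 CPM to 9.65, 3.93 and 10.1 CPM (2.68 ± 0.44, adjusted p = 5.06e-04).

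**Figure D3:**
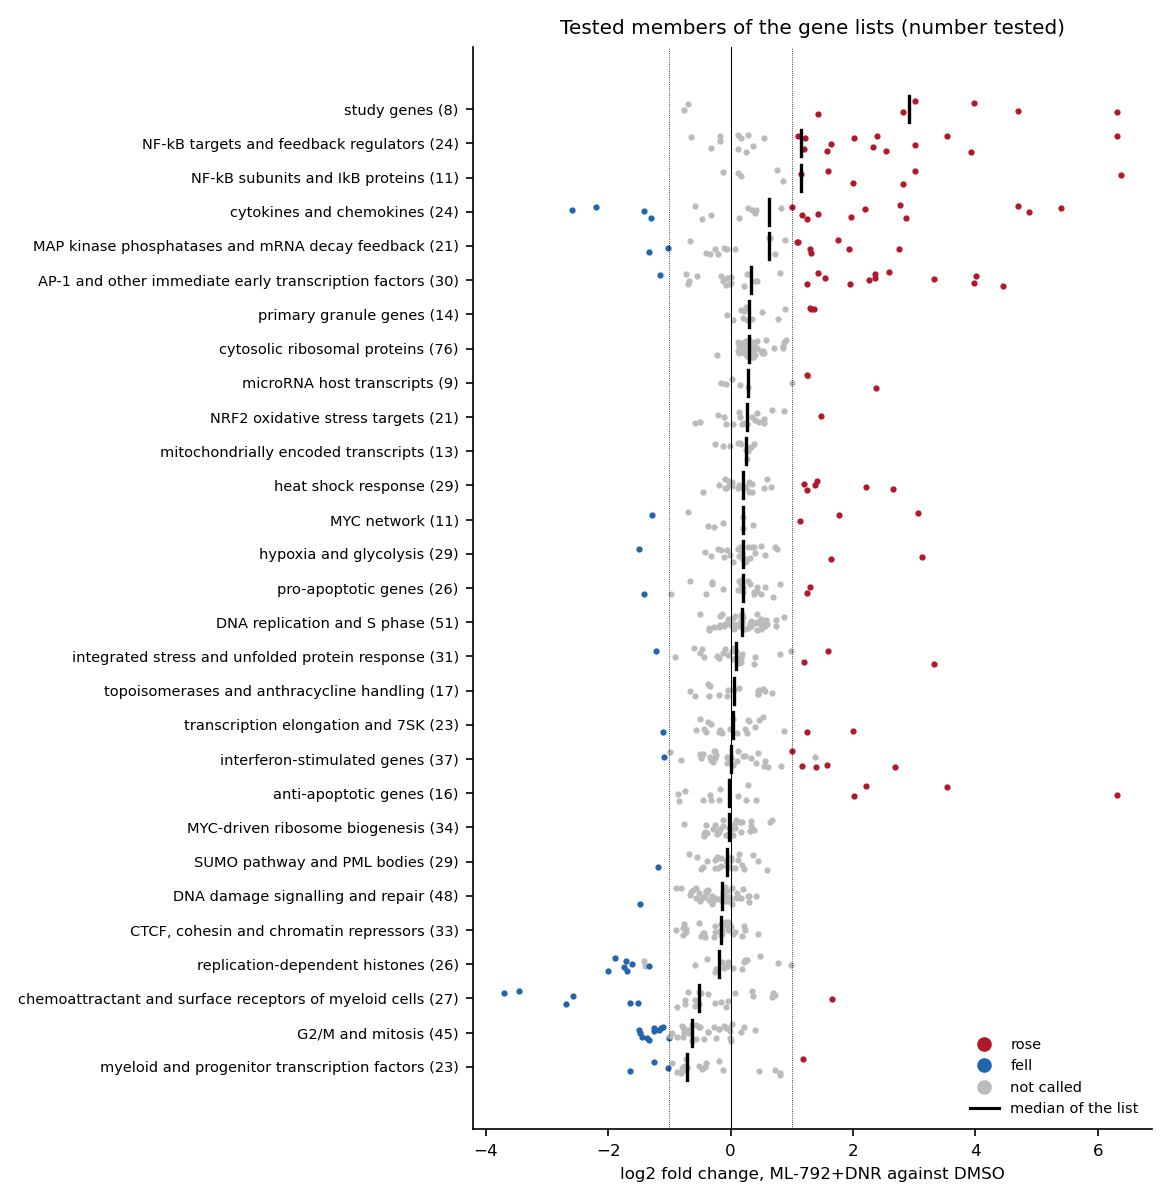
Log2 fold changes, ML-792+DNR against DMSO, of tested members of gene lists reported here with 8 or more tested members, 1 point per gene. A bar marks the list's median, the number tested is in brackets, and the list of p53 targets is not drawn. NF-kB lists lie to the right with medians of 1.14 and 1.15, mitosis genes to the left with a median of -0.63, and a gene on more than 1 list is drawn in each.

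Of 27 chemoattractant and surface receptors of myeloid cells tested, 6 fell and 1 rose, where 2.80% of all genes fell and 4.50% rose, with a median of -0.51. CCR1, a receptor for inflammatory chemokines (chr3:46243202-46249804, minus strand), stood at 5.12, 5.08 and 5.66 CPM in DMSO and 0.327, 0.432 and 0.448 CPM in ML-792+DNR, 12.97-fold lower (-3.70 ± 0.22, adjusted p = 9.67e-07). CCR2, the receptor for CCL2, went from 3.58, 4.92 and 3.59 CPM to 0.294, 0.551 and 0.241 CPM (-3.46 ± 0.24, adjusted p = 2.33e-06), and CCR7, the receptor that guides cells to lymph nodes, from 8.96, 7.98 and 7.901 CPM to 1.14, 1.73 and 0.964 CPM (-2.70 ± 0.21, adjusted p = 4.20e-06). Every treated library of these 3 was below every vehicle library. GPR183, a receptor for oxysterols, fell from 102, 98.3 and 81.5 CPM to 11.4, 32.8 and 9.26 CPM (-2.57 ± 0.29, adjusted p = 5.17e-05), with treated replicate 2 the highest of the treated libraries. Other large falls were TAGAP, a RhoGAP of activated lymphocytes (-3.47 ± 0.28, adjusted p = 5.57e-06), C16orf54 (-3.18 ± 0.24, adjusted p = 3.93e-06), SH2D3C, an adaptor of integrin signalling (-3.20 ± 0.26, adjusted p = 5.57e-06), SLA, an adaptor that dampens antigen receptor signals (-2.86 ± 0.26, adjusted p = 1.07e-05), BHLHE40, a repressor linked to the circadian clock (-2.19 ± 0.23, adjusted p = 3.00e-05), and NLRP3, the sensor of the inflammasome (-2.13 ± 0.28, adjusted p = 1.26e-04). For TAGAP, C16orf54, SLA and NLRP3, as for GPR183, treated replicate 2 was the highest of the 3 treated libraries, and non-overlap of the groups was a condition for naming them.

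Transcription factors of myeloid and progenitor cells lay below the bulk of genes, with a median of -0.71 over 23 tested, of which 3 fell and 1 rose. Over all genes 2.80% fell and 4.50% rose. IKZF1, a zinc finger regulator of blood lineages, stood at 186, 181 and 160.4 CPM in DMSO and 53.7, 70.5 and 47.3 CPM in ML-792+DNR (-1.64 ± 0.09, adjusted p = 9.02e-07). GATA2, a factor of stem and progenitor cells, went from 58.2, 69.9 and 59.7 CPM to 20.05, 36.9 and 24.2 CPM (-1.24 ± 0.11, adjusted p = 7.86e-06). LYL1 fell by a value near the threshold (-1.01 ± 0.24, adjusted p = 0.00464) and was not called without the replicate block (adjusted p = 0.0619). CEBPD rose from 0.518, 1.300 and 0.561 CPM to 1.67, 1.702 and 1.86 CPM (1.18 ± 0.34, adjusted p = 0.0134), a call lost when DMSO replicate 1 or 3 or ML-792+DNR replicate 1 was left out (adjusted p from 0.0557 to 0.0852). Of 14 primary granule genes 3 rose and 0 fell, PRTN3, ELANE and CFD. PRTN3, proteinase 3, was at 69.1, 131 and 167 CPM in DMSO and 251, 206 and 505 CPM with both drugs (1.29 ± 0.41, adjusted p = 0.02298). Its spread within groups was large, and without the block the adjusted p values of PRTN3, ELANE and CFD were 0.103, 0.139 and 0.0836. In place of 3, the list had 0 rises without DMSO replicate 3, 1 without DMSO replicate 1 or ML-792+DNR replicate 1, and 5 without DMSO replicate 2.

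Of 45 mitosis genes tested, 11 fell and 0 rose against a background of 2.80% and 4.50%, with a median of -0.63. PSRC1, a microtubule regulator, stood at 21.8, 17.2 and 28.2 CPM in DMSO and 6.28, 8.03 and 9.44 CPM in ML-792+DNR (-1.49 ± 0.13, adjusted p = 9.50e-06). KIF20A, a kinesin of the central spindle, went from 58.7, 38.5 and 64.2 CPM to 20.4, 16.1 and 20.7 CPM (-1.48 ± 0.09, adjusted p = 9.85e-07), and CCNF, the F-box protein cyclin F, from 57.7, 43.4 and 64.1 CPM to 18.3, 19.9 and 22.1 CPM (-1.44 ± 0.11, adjusted p = 2.95e-06). In all 3, as for the helicase gene PIF1 (-1.37 ± 0.15, adjusted p = 3.36e-05), replicate 2 was the lowest of the DMSO libraries, yet no treated library reached it. In bulk RNA, fewer cells in G2 and mitosis and less of these RNAs per cell cannot be told apart. Genes of DNA replication and S phase did not share the fall: of 51 tested none was called, and their median was 0.19. Without the fold minimum 28 of them were higher and 5 lower, where 3361 and 3347 of all 13696 genes were. In that list PCNA, the sliding clamp of replication, was higher by less than 2-fold, at 486, 598 and 525 CPM and 768, 791.96 and 742 CPM (0.52 ± 0.07, adjusted p = 1.30e-04), and MCM7 differed by 0.13 on the log2 scale (adjusted p = 0.0526). Of 26 replication-dependent histone genes 7 fell and 0 rose, but the count moved when 1 library was left out. The libraries hold polyadenylated RNA, whereas replication-dependent histone mRNAs mostly lack a poly(A) tail, so these counts do not measure their full level. HIST1H4H was at 1.25, 1.27 and 0.943 CPM and 0.294, 0.288 and 0.517 CPM (-1.71 ± 0.40, adjusted p = 0.00445), and near-identical copies make the counts uncertain. Without DMSO replicate 1, 1 member of the list fell, without DMSO replicate 3 or ML-792+DNR replicate 2, 2 members, with replicates 2 and 3 only, 3 members, and with the 2 groups fitted alone, 4. At a mean of 1 CPM or more, 0 of 3 tested members fell.

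Of 48 genes of DNA damage signalling and repair 1 fell and 0 rose at the 2-fold minimum, where 2.80% and 4.50% of all genes did. Without that minimum 21 were lower and 5 higher, where 3347 and 3361 of all 13696 genes were. The gene that fell was LIG4, the ligase of non-homologous end joining, which stood at 28.4, 29.3 and 27.4 CPM in DMSO and 10.2, 11.5 and 8.99 CPM in ML-792+DNR (-1.47 ± 0.09, adjusted p = 1.08e-06). Of 17 topoisomerase and anthracycline handling genes none was called. TOP2A, the topoisomerase that anthracyclines trap in dividing cells, was at 928, 678 and 940.2 CPM and 619.5, 611 and 741 CPM (-0.36 ± 0.08, adjusted p = 0.00431), and TOP2B at 529, 446 and 523 CPM and 431, 420.1 and 467 CPM (-0.18 ± 0.06, adjusted p = 0.0223). Of 29 genes of the SUMO pathway and PML bodies 1 fell, SLX4, a scaffold of DNA nucleases (-1.19 ± 0.09, adjusted p = 2.64e-06), and of 33 genes of CTCF, cohesin and chromatin repressors none was called. The median of these last 2 lists was -0.05 and -0.16, and without the fold minimum 10 and 16 members were lower and 4 and 4 higher. Of 23 genes of transcription elongation and 7SK 2 rose and 1 fell, close to the shares over all genes. HEXIM1, the inhibitor of the elongation kinase P-TEFb, went from 87.5, 85.7 and 87.9 CPM to 399, 267 and 391 CPM (1.99 ± 0.12, adjusted p = 9.58e-07), ELL2, a subunit of the super elongation complex, from 7.92, 8.01 and 8.72 CPM to 22.1, 16.3 and 20.2 CPM (1.24 ± 0.09, adjusted p = 2.95e-06), and AFF1, a scaffold of that complex, from 154, 136 and 142 CPM to 61.1, 72.7 and 68.1 CPM (-1.10 ± 0.08, adjusted p = 2.33e-06, or -0.99 with replicates 2 and 3 only).

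Growth genes varied by member. In the MYC network, 3 of 11 rose and 1 fell, where 4.50% and 2.80% of all genes did, while none of 34 ribosome biogenesis genes was called. MXD1, a dimerization partner of MAX that opposes MYC, went from 15.9, 15.1 and 13.6 CPM in DMSO to 58.01, 40.8 and 53.4 CPM in ML-792+DNR (1.76 ± 0.10, adjusted p = 9.02e-07). MYCL was scarce and rose from 0.108, 0.155 and 0.0765 CPM to 1.11, 0.767 and 0.9299 CPM (3.06 ± 0.34, adjusted p = 4.41e-05), and MGA, a repressor that also binds MAX, fell from 133, 125 and 125 CPM to 37.2, 64.2 and 58.1 CPM (-1.29 ± 0.15, adjusted p = 7.18e-05). None of 76 cytosolic ribosomal protein genes was called, with a median of 0.31. Without the fold minimum 68 of them were higher and 0 lower, where 3361 and 3347 of all 13696 genes were. None of 13 mitochondrially encoded transcripts was called, with a median of 0.25 that was -0.04 with replicates 2 and 3 only. Of 29 hypoxia and glycolysis genes 2 rose, ADM (3.12 ± 0.33, adjusted p = 3.12e-05) and ANKRD37 (1.64 ± 0.24, adjusted p = 2.20e-04), and 1 fell, the glucose transporter gene SLC2A3 (-1.49 ± 0.12, adjusted p = 5.22e-06), again close to the 4.50% and 2.80% of all genes.

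The direct test of both drugs against DNR alone asked what ML-792 added to DNR. Of 13696 genes, 24 (0.175%) were higher and 28 (0.204%) lower with both drugs, and without the replicate block 13 and 14 were. Of the 28 lower genes 14 were on the NF-kB and cytokine lists, which hold 59 of the tested genes. Of the 11 NF-kB subunits and IkB proteins 2 were lower and 0 higher, with a median of -0.49, of the 24 NF-kB targets 6 were lower and 0 higher, with a median of -0.44, and of the 24 cytokines and chemokines 6 were lower and 0 higher, with a median of -0.37, against a median of 0.00 over all genes. These lists were chosen with results of these data known. CXCL10 stood at 7.23, 9.58 and 11.2 CPM with DNR and 0.785, 2.06 and 1.48 CPM with both drugs (-2.69 ± 0.31, adjusted p = 0.00166), while DESeq2 gave adjusted p = 0.209 for it. ICAM1 was at 6.51, 4.06 and 10.4 CPM and 1.99, 0.935 and 2.93 CPM (-1.86 ± 0.19, adjusted p = 0.00111), NFKB2 at 70.5, 63.7 and 77.3 CPM and 35.4, 26.7 and 39.98 CPM (-1.06 ± 0.12, adjusted p = 0.00166), and CXCL8 at 98.7, 168 and 171 CPM and 35.4, 72.9 and 67.5 CPM (-1.33 ± 0.21, adjusted p = 0.00593). In these 4 genes every library with both drugs was below every DNR library and above every DMSO library. No overlap with the DNR libraries was a condition for naming genes by this comparison. TNFAIP2, a TNF-induced gene of myeloid and endothelial cells, was at 62.5, 62.3 and 93.7 CPM and 23.4, 22.5 and 47.5 CPM (-1.27 ± 0.11, adjusted p = 6.03e-04, or adjusted p = 0.0517 without the block). CXCL3 (-1.07 ± 0.13, adjusted p = 0.00217) and EGR1 (-1.11 ± 0.20, adjusted p = 0.0119) were lower by about 2-fold, and each lost its call when replicate 2 of either group was left out, EGR1 also without replicate 3 of either. Leaving out any 1 of the 3 DNR libraries, or ML-792+DNR replicate 1 or 2, gave 14 to 17 lower genes in place of 28, and without ML-792+DNR replicate 2 there were 16 higher ones in place of 24.

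Other members of the same lists were not called against DNR. IER3 stood at 43.6, 42.99 and 44.1 CPM with DNR and 53.1, 51.5 and 60.6 CPM with both drugs (0.34 ± 0.18, adjusted p = 0.312), which did not pass the test although the libraries of the 2 groups did not overlap. JUN (-0.34 ± 0.14, adjusted p = 0.191), NFKBIA (-0.30 ± 0.13, adjusted p = 0.206), FOSB (-0.59 ± 0.18, adjusted p = 0.0825), EGR3 (-0.06 ± 0.15, adjusted p = 0.851) and HEXIM1 (-0.26 ± 0.11, adjusted p = 0.207) did not pass the test either, which does not show that their levels were equal. TNFAIP3 (-0.78 ± 0.13, adjusted p = 0.007004), BTG2 (-0.96 ± 0.14, adjusted p = 0.00528), ATF3 (-0.82 ± 0.15, adjusted p = 0.0119) and PPP1R15A (-0.91 ± 0.12, adjusted p = 0.00266) had an adjusted p below 0.05 but stayed under 2-fold. No mitosis, histone, heat shock or DNA repair gene of the lists was called in this comparison. Leading falls were likewise not called: CCR1 was at 0.144, 0.248 and 0.499 CPM with DNR (0.47 ± 0.33, adjusted p = 0.441), TAGAP at 1.297, 4.47 and 2.31 CPM (-0.47 ± 0.32, adjusted p = 0.424), GPR183 at 11.5, 27.8 and 11.01 CPM (0.05 ± 0.29, adjusted p = 0.935) and IL16 at 2.57, 5.34 and 3.65 CPM (-0.01 ± 0.20, adjusted p = 0.977).

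The genes that were higher with both drugs than with DNR included the host transcript of a microRNA cluster. MIR17HG is a long non-coding RNA that carries the miR-17-92 cluster and is a known target of MYC (chr13:91999940-92049846, plus strand). It stood at 35.5, 44.04 and 47.4 CPM in DMSO, 25.5, 33.3 and 30.03 CPM with DNR, 453, 286 and 338 CPM with ML-792 and 179, 221 and 257 CPM with both drugs. The combination was higher than DMSO (2.37 ± 0.18, adjusted p = 3.81e-06) and DNR (2.88 ± 0.19, adjusted p = 6.63e-05) in every library, and lower than ML-792 alone by less than 2-fold (-0.73 ± 0.17, adjusted p = 0.00491). MIR503HG, the host of miR-503, stood at 4.27, 4.21 and 4.87, 6.02, 5.02 and 5.71, 10.7, 6.83 and 10.3 and 17.2, 9.78 and 16.8 CPM in the same order of groups (1.68 ± 0.14, adjusted p = 7.48e-06 against DMSO, 1.35 ± 0.14, adjusted p = 0.00126 against DNR). A mature arm of each microRNA is shown because the hosts hold these microRNAs, 5′ to 3′ from RefSeq (GRCh38.p14) with the seed, bases 2 to 8, in capitals.
miR-17-5p: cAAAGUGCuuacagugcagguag
miR-18a-5p: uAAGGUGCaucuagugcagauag
miR-19a-3p: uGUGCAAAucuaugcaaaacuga
miR-20a-5p: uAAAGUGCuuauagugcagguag
miR-19b-3p: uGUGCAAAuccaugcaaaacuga
miR-92a-3p: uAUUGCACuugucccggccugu
miR-503-5p: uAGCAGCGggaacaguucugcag
miR-17-5p and miR-20a-5p share a seed, as do miR-19a-3p and miR-19b-3p. The libraries measured the polyadenylated hosts, and the level of the mature microRNAs was not measured.

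**Figure D4:**
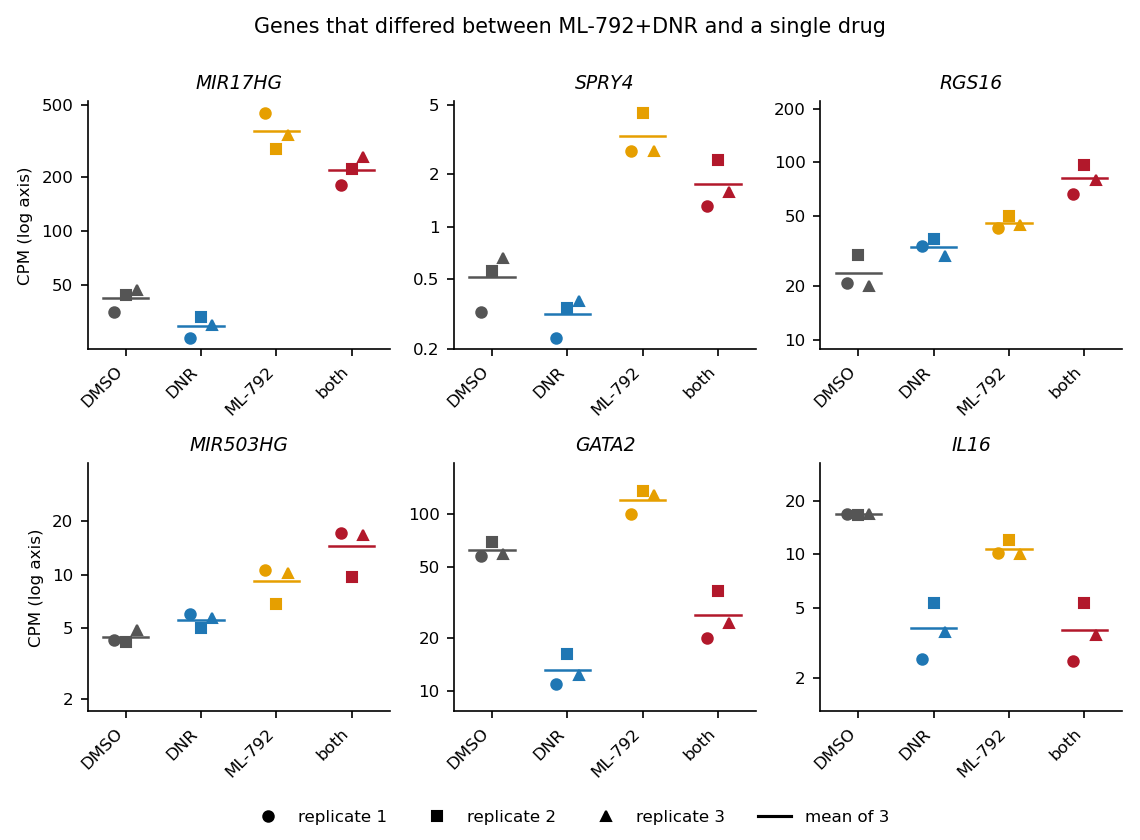
CPM on a log axis of 6 genes in each of the 12 libraries, by treatment group, with symbols for replicate number and a line at the mean of 3. MIR17HG and SPRY4 are highest with ML-792 alone, RGS16 and MIR503HG with both drugs, and GATA2 and IL16 are lower with both drugs than in DMSO.

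MYC stood at 81.5, 146 and 117 CPM with DNR, 1045, 1507 and 1296 CPM with ML-792 and 251, 584 and 344 CPM with both drugs. The combination was 3.33-fold higher than DNR (1.74 ± 0.12, adjusted p = 8.48e-05) and 3.41-fold lower than ML-792 (-1.77 ± 0.12, adjusted p = 2.80e-06), so its level lay between those of the single drugs. PLD6, a mitochondrial phospholipase, likewise lay between, at 11.6, 16.9 and 12.3 CPM with DNR, 45.5, 43.8 and 43.9 CPM with ML-792 and 22.96, 37.4 and 26.8 CPM with both (1.09 ± 0.13, adjusted p = 0.00166 against DNR, or 0.94 and not called without ML-792+DNR replicate 2). GATA2 was at 11.1, 16.2 and 12.3 CPM with DNR and 100.4, 134 and 127 CPM with ML-792 (1.02 ± 0.11, adjusted p = 0.00144 against DNR, -2.18 ± 0.11, adjusted p = 2.89e-07 against ML-792). RGS16, a brake on G protein signalling, was highest with both drugs, at 21.00, 30.05 and 20.1 CPM in DMSO, 33.6, 37.00 and 29.8 CPM with DNR, 42.5, 50.03 and 44.5 CPM with ML-792 and 66.7, 97.02 and 79.9 CPM with both. It was higher than DNR (1.27 ± 0.10, adjusted p = 1.14e-04) and higher than ML-792 by less than 2-fold (0.82 ± 0.09, adjusted p = 5.69e-05). The libraries did not overlap in either case, which against DNR was a condition for naming the gene. SPRY4 was higher than with DNR (2.46 ± 0.26, adjusted p = 0.00126) and lower than with ML-792 (-0.91 ± 0.19, adjusted p = 0.002300). The rise of LHX6, a homeobox gene, over DNR (1.24 ± 0.15, adjusted p = 0.00217) was not called without the block (adjusted p = 0.104).

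Against ML-792 alone, which served as the control for what DNR did while SUMO attachment was blocked, 571 genes (4.17%) were higher and 386 (2.82%) lower with both drugs. This comparison shares its ML-792+DNR libraries with the one against DMSO, so the values are given for themselves. ATF3 (3.84 ± 0.19, adjusted p = 2.74e-07), RND1 (4.23 ± 0.24, adjusted p = 7.34e-07), BTG2 (4.22 ± 0.21, adjusted p = 2.74e-07) and FOSB (4.09 ± 0.23, adjusted p = 7.01e-07) were higher. IER3 was already at 3.26, 6.41 and 4.94 CPM with ML-792, so its difference (3.53 ± 0.21, adjusted p = 1.02e-06) was smaller than against DMSO. Of the 23 myeloid and progenitor transcription factors 8 were lower and 3 higher, with a median of -0.73. NFE2, a bZIP factor of erythroid and megakaryocytic genes, stood at 9.51, 11.2 and 14.2 CPM with ML-792 and 0.458, 1.15 and 0.964 CPM with both drugs (-3.72 ± 0.24, adjusted p = 1.61e-06), and at 3.97, 3.28 and 6.83 CPM in DMSO. Of the 45 mitosis genes 9 were lower and 0 higher, and of the 11 NF-kB subunits and IkB proteins 7 were higher and 0 lower.

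The interaction, the difference between the combination and the sum of the single changes on the log2 scale, was called for 1 gene, TNFAIP2, by edgeR, while 1077 genes had an unadjusted p below 0.05 and DESeq2 called 10. Side by side, all 3 against the same DMSO libraries, the log2 fold change of IER3 was 5.98 with DNR, 2.79 with ML-792 and 6.32 with both, that of NFKB2 3.88, 0.05 and 2.82, that of MIR17HG -0.51, 3.10 and 2.37, and that of MYC -2.44, 1.07 and -0.70. For JUN the values were 4.79, 0.15 and 4.45, for ICAM1 4.88, -0.20 and 3.02, for RGS16 0.51, 0.96 and 1.78, and for CCR1 -4.17, -0.56 and -3.70.

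Genes that rose with both drugs had a shorter median length, taken over the canonical transcript, than the rest. Of the 13696 tested genes 12273 were found by symbol in the GENCODE annotation on GRCh37. The share found was 84.1% for genes that rose, 84.6% for those that fell and 90.0% for those not called. The median length of the canonical transcript from start to end, introns included, was 9.90 kb for the 439 coding genes that rose, 23.5 kb for the 294 that fell and 29.7 kb for the 10256 not called. The median number of exons was 5, 8 and 10, and 18.2%, 12.9% and 4.88% had 1 or 2 exons. Long non-coding RNAs made up 10.6% of the annotated genes that rose, 3.69% of those that fell and 4.49% of those tested. Promoter base composition differed little, with a median of 65.2% G and C in the 250 bases before the start of coding genes that rose, 63.2% in those that fell and 66.0% in all tested. Of the motifs searched there on both strands, the AP-1 motif was present in 4.56%, 4.42% and 3.34%, the cAMP response element (TGACGTCA) in 3.42%, 1.36% and 2.99%, and the E-box CACGTG in 9.57%, 7.14% and 9.50%. These are descriptions of the called genes and were given no test.

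**Figure D5:**
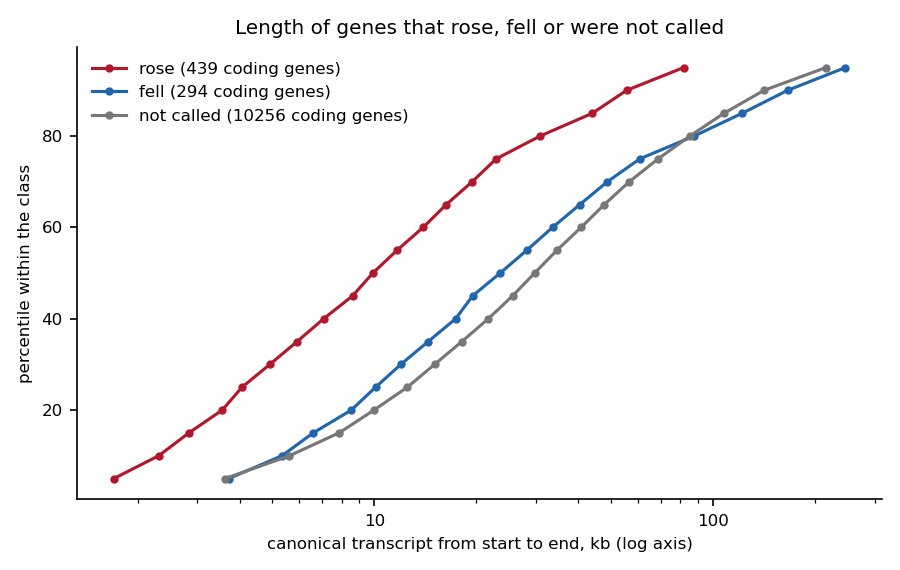
Percentiles, in steps of 5, of the length of the canonical transcript from start to end, introns included, in kb on a log axis, for coding genes that rose, fell or were not called with both drugs against DMSO. The curve of the 439 genes that rose lies to the left of the others over its whole course, with medians of 9.90, 23.5 and 29.7 kb.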

How the data were processed

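Raw read counts per gene for 12 polyadenylated RNA libraries were deposited by the authors, who mapped single-end reads to hg19 (GRCh37) using TopHat2 (2.1.1) with Bowtie2 (2.3.5.1) as its aligner, then assigned reads to genes using HTSeq (0.11.1). Cufflinks (2.2.1), Picard and DESeq2 are further tools in the submitters' processing notes. The strand setting and annotation behind the counting are not given in the sources used here. Overlapping and antisense genes are therefore uncertain. A deposited normalized table and the authors' comparison table, which holds fold changes and p-values, were not used.

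The 5 counter lines were left out. Reads in genes made up 65.3% to 67.4% of records. Of 42157 genes 24018 had a read, and 13696 passed filterByExpr by group (minimum count 10, minimum total 15). A quasi-likelihood model with TMM scaling (edgeR 4.0.16, R 4.3.3) was fitted to all 12 libraries with group and replicate number, checked first on simulated data, and a gene was called at Benjamini-Hochberg adjusted p below 0.05 and at least 2-fold. SE is the log2 change divided by the square root of F. An exact permutation test of 3 against 3 libraries that ignores the replicate numbers cannot go below p = 0.1. Permuting only within replicate numbers allows fewer arrangements and so a higher limit. Intervals and floors cover counting error only.

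Deviations from group means correlated across genes with r from 0.12 to 0.33 in the 3 same-numbered pairs of DMSO and ML-792+DNR libraries and from -0.25 to 0.03 in the 6 others, so the numbers were taken to pair the libraries. Over all 12 libraries the 18 same-numbered pairs had r from 0.07 to 0.59 and the 36 others from -0.50 to 0.09, so these ranges overlapped slightly. No library repeated another, with a chi-square per gene of 16.9 to 84.4 within groups.

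The samples, the 34 gene lists and the rule for named genes were chosen with earlier results of these data known. Genes named were the 8 study genes, the 12 largest called rises and 12 largest falls against DMSO and the 6 of each against either single drug (5 CPM or more on average in the higher group, no overlap), and from each list its called members by size of change, 4 at most, or, where none was called, the 2 tested members with the highest CPM. Coordinates, lengths and promoters came from GENCODE on GRCh37. Alternatives were no block, the compared groups only, DESeq2 1.42.0, limma voom 3.58.1, other scalings, filters and fold minimums, replicates 2 and 3 only, and leaving out each library. Results on some genes and lists are not reported here.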

Additional observations from a re-analysis of the deposited data

Results flagged for a closer look

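TNFAIP2 was the only gene whose change with ML-792 differed, in edgeR's interaction test, between cells with and without DNR, with an interaction of -1.61 on the log2 scale (adjusted p = 0.0113). It stood at 9.196, 8.63 and 12.5 CPM in DMSO, 12.4, 10.5 and 15.4 CPM with ML-792, 62.5, 62.3 and 93.7 CPM with DNR and 23.4, 22.5 and 47.5 CPM with both. ML-792 alone changed it by 0.34 on the log2 scale, and ML-792 on top of DNR by -1.27. The call was not made without the replicate block, nor when any 1 of 4 libraries was left out, which were replicates 1 and 3 of DMSO, replicate 3 of DNR and replicate 2 of ML-792.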

How the results depend on the processing

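The replicate block was part of the main fit, and without it 538 genes rose and 350 fell against DMSO (879 of 1000 calls shared), 13 and 14 passed against DNR, and the interaction called 0 genes (DESeq2 with the block called 2 up and 8 down, no count filter 4 and 11, replicates 2 and 3 only 0 and 9). Against DMSO, DESeq2 (527 and 353), limma voom, both other scalings, no count filter and the 2 groups alone stayed within 1.5 times the main counts, whereas a mean of at least 1 CPM gave 329 and 250, no fold minimum 3361 and 3347, a fold of at least 1.5 gave 1289 and 1267, and replicates 2 and 3 only gave 406 rises. Leaving out 1 library gave 418 to 813 rises and 325 to 487 falls, with the extremes of the rises without DMSO replicate 1 and without DMSO replicate 2. Against DNR, the 2 groups alone gave 43 rises, DESeq2 15 falls, 1 CPM 17 falls, no fold minimum 226 and 314, a fold of at least 1.5 gave 89 and 66, replicates 2 and 3 only gave 17 falls, and leaving out 1 library 16 to 28 rises and 14 to 29 falls. Against ML-792, 1 CPM gave 304 and 252, no fold minimum 3203 and 3187, a fold of at least 1.5 gave 1270 and 1157, replicates 2 and 3 only 369 rises, and leaving out 1 library 430 to 714 and 328 to 471. The interaction called 0 to 5 falls with 1 library left out. Stricter filters and fold minimums alter the counts by construction, and the cause of the other shifts was not tested. Of 138 values of named genes, 113 kept their sign and side of the threshold in all alternatives but the fold minimums, as far as the gene was tested in them. A mean of at least 1 CPM left 124 of the values to compare, and the 2 groups alone 134. Changes of sign occurred for genes that were not called against DMSO: CHD4 (0.1231 with replicates 2 and 3 only, -0.1198 to 0.0735 with 1 library left out), PLD6 (0.0424, and -0.2201 to 0.0370), CBX3 (-0.0523 to 0.0129), CD79A (-0.0765 to 0.6124) and KRT8 (-0.0014 to 0.1202). At 28.6 to 46.5 M reads per library, genes with few reads in DMSO, such as BCL3, CCL4 and CXCL10, have an imprecise size of change.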

Other observations

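The comparisons of ML-792+DNR against DMSO, DNR and ML-792 called 2 genes higher in all 3, GAS1 and ANKRD37, and 1 gene lower, KBTBD12. The comparisons share the ML-792+DNR libraries, and these genes were chosen after their values were seen. GAS1, a membrane protein linked to growth arrest and to Hedgehog signalling, stood at 0.173, 0.0619 and 0.0765 CPM in DMSO, 0.144, 0.0620 and 0.0935 CPM with DNR, 0.236, 0.0895 and 0.177 CPM with ML-792 and 0.850, 0.455 and 0.758 CPM with both drugs. These were 26, 19 and 22 reads per library with both drugs and 2 to 9 reads in every other library. Its log2 fold change was 2.68 ± 0.31 (SE) against DMSO, 2.75 ± 0.33 against DNR and 2.03 ± 0.30 against ML-792, each called by edgeR, while the interaction of 2.09 ± 0.56 was not (adjusted p = 0.338).

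ANKRD37, an ankyrin repeat gene known as a hypoxia target, stood at 0.669, 0.526 and 0.688 CPM in DMSO, 0.951, 0.744 and 1.03 CPM with DNR, 0.762, 1.22 and 0.735 CPM with ML-792 and 1.96, 2.21 and 1.79 CPM with both drugs. The libraries with both drugs lay above all others, by 1.12 on the log2 scale against DNR, and the interaction was not called (adjusted p = 0.715).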
